A study of Drosophila melanogaster with 4 samples.

Results

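The genes described here encode the machinery of mitosis: the mitotic cyclins and kinases, the chromosomal passenger complex, the spindle checkpoint, the centromere and kinetochore, spindle motors and microtubule-associated proteins, the central spindle, and topoisomerase II. They were chosen by name, as a list of 39 genes, and sorted into 7 function groups. All 39 were among the 8806 gene and transposable element rows of the deposited table, each under its own symbol, and all 39 passed the minimum mean of 10 normalized reads that 7690 rows passed. The RNA came from BG3, a Drosophila melanogaster line of larval central nervous system origin. One group of 2 libraries (the control) came from cells given dsRNA against Brown and labelled WT for genotype, and the other group of 2 came from cells given dsRNA against Cap-H2, a subunit of condensin II, and labelled CapH2 Knockdown. Brown encodes an eye pigment transporter. Both groups therefore carried a knockdown treatment: 20 µg of dsRNA for 30 min without serum, then 4 days of culture in medium with serum and insulin. Nothing in the labels ties the 2 libraries of a group to separate cultures. The p-values therefore reflect only how far these samples scatter, and that scatter may be technical.

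Entry into mitosis is driven by Cdk1 bound to a mitotic cyclin and switched on by the phosphatase String. Polo and the Aurora kinases then organise centrosomes, spindle and chromosomes, and the kinetochore ties each centromere to spindle microtubules. The spindle checkpoint holds back the anaphase promoting complex until all kinetochores are attached, after which cyclins and securin are destroyed, separase opens cohesin, and the central spindle directs cytokinesis. Condensins compact chromosomes, with condensin II nuclear through the cell cycle, and topoisomerase II works on the same chromosomes. In cycling cells many mitotic mRNAs are most abundant in G2 and M phase. In bulk RNA, fewer cells in a phase and less RNA per cell cannot be told apart.

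The libraries held between 21539511 and 21935781 reads on gene and element rows. Control library 1 stood furthest from the others, with a chi-square per degree of freedom of 5.08 to 7.96 against them, while the other pairs had 2.97 to 4.27. Cap-H2, the dsRNA target, had 880 and 873 normalized reads in control libraries 1 and 2 and 543 and 555 in knockdown libraries 1 and 2, so that the knockdown mean was 62.7% of the control mean (log2 fold change -0.67, limma SE 0.06, adjusted p = 1.5e-05). The knockdown was thus partial at the RNA level, and protein was not measured. As a check of the labelled cell type, the neuronal genes elav and nrv3 had means of 558 and 363 normalized reads over the 4 libraries. The synaptic genes Syn, brp and nSyb had 12.5, 3.2 and 3.0. The glial gene moody had 5349, but the glial genes repo and Gs2 had 81.6 and 104. The blood cell gene srp had 6086, while Pxn had 682, Hml 272, eater 60.1 and NimC1 6.49. Among neuroblast, muscle, fat body and germ line markers the most abundant were insc (168), bt (71.4), apolpp (17.7 to 34.9 over the libraries) and aub (151). Summed over the 5 blood cell markers with a row, the level was 7080 to 7486 in the control and 6866 to 6991 in the knockdown. Of these, srp and NimC1 overlapped between the groups. Hml, Pxn and eater had both knockdown libraries below both controls, as 19.5% of all tested rows did. Hml held 339 and 287 in the control and 221 and 239 in the knockdown (log2 fold change -0.44, limma adjusted p = 0.10). Over the 4 germ line markers the sum was 192 to 214 in the control and 174 to 176 in the knockdown. Most of it was aub, with both knockdown libraries below both controls. In vas, at 11.8 and 7.0 in the control and 17.9 and 15.2 in the knockdown, both lay above, as in 19.2% of all tested rows. The groups overlapped in bam and Rbp9. The sums of the neuron, glia and muscle markers overlapped between the groups, and most of the glia sum was moody. The fat body gene apolpp, the only 1 of 5 listed fat body markers with a row, also overlapped. The sum of the 3 neuroblast markers ran from 179 to 193 in control libraries and from 197 to 206 in knockdown libraries. Taken singly, these 3 (insc, mira and dpn) each overlapped between the groups. The part of these markers in the results below was not tested.

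The mitotic genes were well expressed in BG3 cells. Levels between genes were compared as normalized reads per kb of exon, with all annotated exons of a gene merged, so a gene with unused exons is understated. On this scale 33 of the 39 lay above the median of the 7583 tested rows with a length, and their median stood at percentile 80.3. Top2, topoisomerase II, was highest at 2555 ± 50.6 per kb (SD over the 4 libraries), followed by Klp61F, the kinesin-5 that slides spindle microtubules apart, at 1954 ± 15.6, and by the kinase gene polo at 1748 ± 33.3. The ranges of these 3 over the libraries did not overlap. At the other end were Bub1, thr, Mps1, Ndc80 and cid, from 226 down to 188 per kb, where each gene's range over the libraries overlapped that of the next. The lowest was cid, the centromeric histone H3 variant, at 188 ± 16.9.

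**Figure D1:**
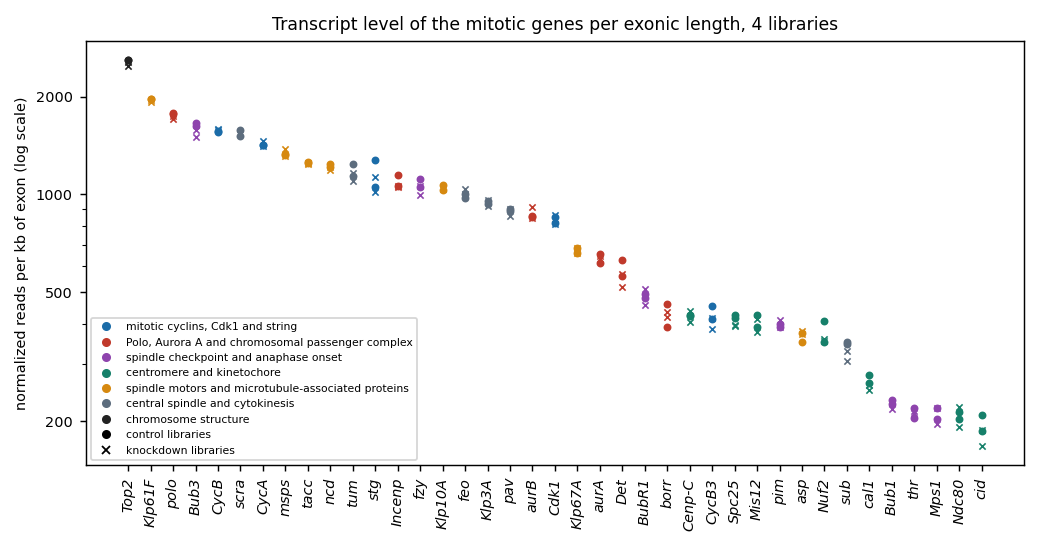
Level of each mitotic gene in normalized reads per kb of exon on a log axis, with 1 point per library (circles, control; crosses, knockdown) and genes ordered by their mean. The genes run from Top2 at 2555 to cid at 188 per kb, and for each gene the 4 libraries lie close together beside the differences between genes.

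Genes were also compared within 6 small sets, some of which are protein complexes. In each set the order of mRNA levels per kb was the same in all 4 libraries. Among the mitotic cyclins CycB (1572 per kb) and CycA (1426) stood far above CycB3 (417), with a ratio of highest to lowest between 3.46 and 4.12 in single libraries. In the chromosomal passenger complex the scaffold gene Incenp (1083) was highest, followed by the kinase gene aurB (870), Det (570) and borr (426), and the ratio of highest to lowest ran from 2.32 to 2.94. The 3 genes of the Ndc80 complex in the list showed a narrower span, from Spc25 (409) over Nuf2 (368) to Ndc80 (208). At the centromere Cenp-C (422) stood above its partners cal1 (263) and cid (188). Of the 2 centralspindlin genes tum (1161) exceeded pav (885), and msps (1337) exceeded tacc (1251) in the pair that acts at centrosomal microtubules.

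No mitotic gene passed the test for a difference between the groups. Of the 39, 0 passed limma at an adjusted p of 0.05, a threshold that 0.39% of the 7690 tested rows passed (30 rows). As higher it was 0.325% (25 rows) and as lower 0.065% (5 rows). At an unadjusted p under 0.05 there were 2, sub and Bub3, both lower, where 8.13% of all tested rows reached that p in either direction, 3.78% as lower and 4.34% as higher. That count of lower genes was 0 without control library 1, 7 without control library 2, 5 without knockdown library 1 and 1 without knockdown library 2, and it was 0 with median centring. On whole reads recovered from the table edgeR called 28 rows and 0 of the 39, with 2 of them at an unadjusted p under 0.05. DESeq2 called 45 rows and 0 of the 39, with 0 at that p, but gave 22 of the 39 no adjusted p. The authors' deposited table, which has 32 rows with an adjusted p under 0.05, gives all 39 an adjusted p of 0.9989. An exact permutation test of 2 libraries against 2 cannot go below p = 0.333, so no single gene was tested that way.

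**Figure D2:**
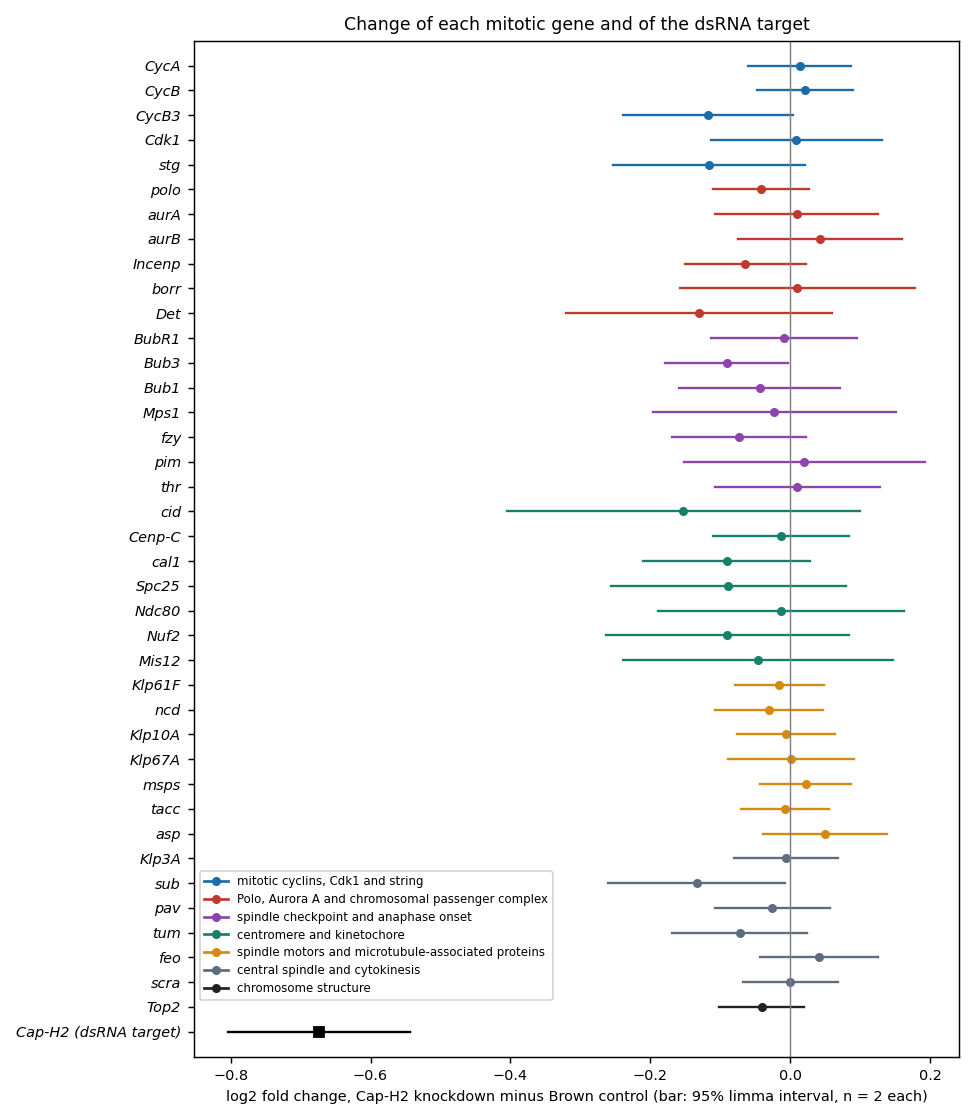
Log2 fold change (Cap-H2 knockdown minus Brown control) of the 39 mitotic genes, coloured by function group, and of Cap-H2 (black square); bars are 95% limma intervals from 2 libraries per group. All 39 points lie between -0.15 and 0.05, against -0.67 for Cap-H2, and 37 of the 39 intervals span 0.

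Between these libraries, the 95% intervals limited the size of change in most of these genes. Whether the limits hold between separate cultures is not known, because the 2 libraries of a group may be technical replicates. The log2 fold changes ran from -0.15 for cid to 0.05 for asp, while the smallest absolute change called among the 5684 rows in the same range of read counts was 0.16. The 95% interval lay within a fold of 1.2 in either direction for 36 genes, and within a fold of 1.1 for 19. These intervals hold for each gene alone and are not adjusted for the number of genes. The median SE was 0.046 for the mitotic genes and 0.057 for the rows in their range of read counts, and the median absolute log2 fold changes were 0.030 and 0.046.

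A negative log2 fold change was found for 27 of the 39 genes, against 50.1% of all tested rows and 51.4% of rows in the same range of read counts. Their median was -0.016, against -0.00014 over all tested rows, a gap of about the same size as under median centring of the libraries, where the medians were -0.0014 and 0.014 and 20 of the 39 were negative. The median over the members of a library's deviation from its group mean had an SD of 0.019 between replicates, which is larger than the median change itself. In 9 genes both knockdown libraries lay below both control libraries, where 19.5% of all tested rows did so, and in 1 gene, CycB, both lay above, where 19.2% did. The groups overlapped in the other 29. Together 10 of 39 (25.6%) did not overlap, and 38.7% of all tested rows did not.

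**Figure D3:**
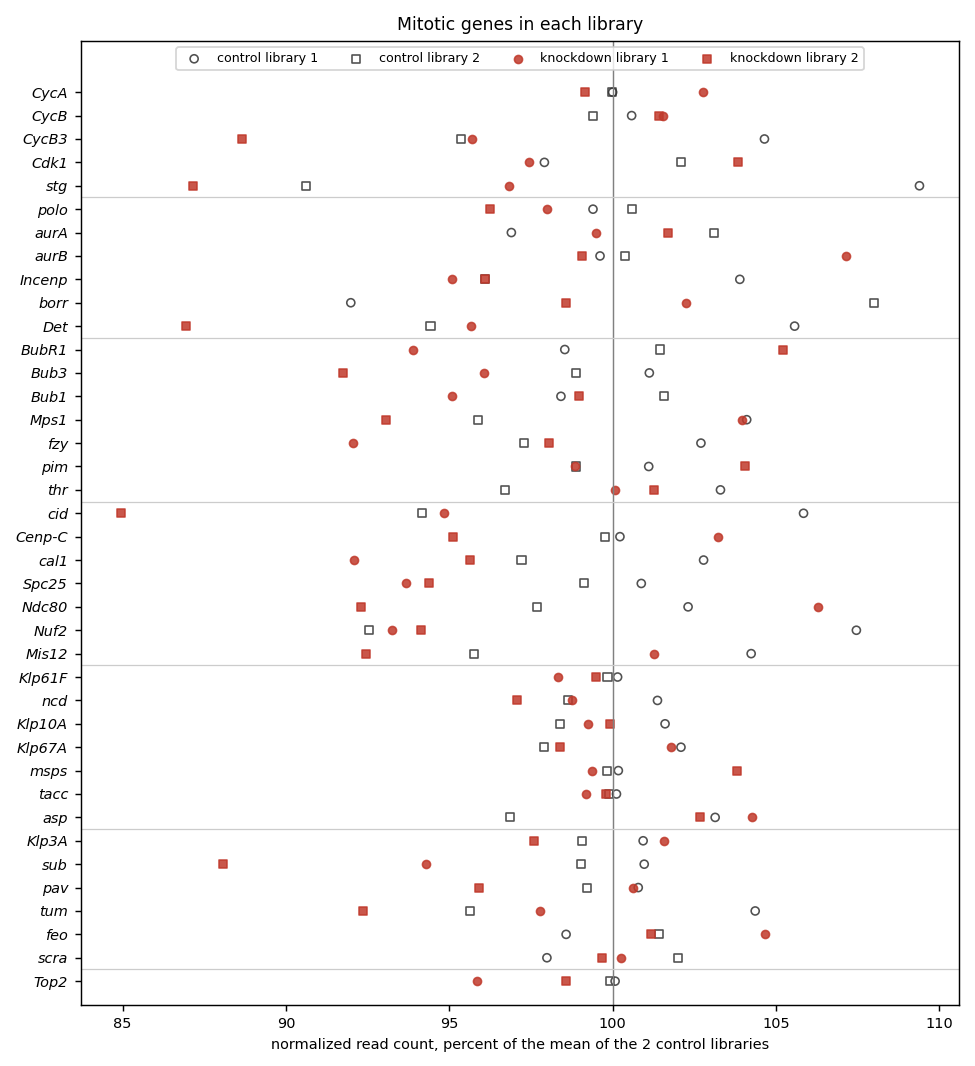
Normalized read count of each mitotic gene in each library as a percentage of the mean of the 2 control libraries (open symbols, control; filled symbols, knockdown; circles, library 1; squares, library 2), with grey lines between function groups. Control and knockdown points interleave in 29 of the 39 genes, and the widest scatter among controls is in stg and borr.

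Among the cyclins, Cdk1 and string, 0 of 5 passed limma (0 at an unadjusted p under 0.05), and the median log2 fold change was 0.0089. CycB3, a B-type cyclin that acts at anaphase (FBgn0015625, dm6 chromosome 3R, 24867934 to 24870816, minus strand), held 1309 and 1192 normalized reads in the control and 1197 and 1109 in the knockdown. Knockdown library 1 lay just above control library 2, so the groups overlapped, and the log2 fold change was -0.12 (limma SE 0.06, adjusted p = 0.62). String, the Cdc25-type phosphatase that activates Cdk1 (stg, FBgn0003525, chromosome 3R, 29251826 to 29255800, minus strand), held 3908 and 3237 in the control and 3459 and 3114 in the knockdown. Its 2 control libraries were 0.27 apart on the log2 scale, more than the difference between the groups of -0.12 (limma SE 0.06, adjusted p = 0.68). Without control library 2 the value for stg was -0.25 and passed (limma adjusted p = 7.4e-06), and without control library 1 it was 0.02 (adjusted p = 0.97). CycB, the cyclin B gene (FBgn0000405, chromosome 2R), held 4784 and 4729 in the control and 4829 and 4824 in the knockdown. Both knockdown libraries were higher, by a log2 fold change of 0.02 (limma SE 0.03, adjusted p = 0.91), and the 95% interval ran from 96.7% to 106% of the control. CycA, the cyclin of mitotic entry, ranged from 4109 to 4258 over the 4 libraries with a log2 fold change of 0.01, and Cdk1, the kinase itself, from 880 to 938 with 0.01.

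Of Polo, Aurora A and the chromosomal passenger complex, 0 of 6 passed limma (0 at an unadjusted p under 0.05), with a median log2 fold change of -0.017. Incenp, the scaffold of the passenger complex (FBgn0260991, chromosome 2R), held 3265 and 3020 normalized reads in the control and 2988 and 3019 in the knockdown. Both knockdown libraries were below both controls, but control library 2 and knockdown library 2 were nearly equal (log2 fold change -0.06, limma SE 0.04, adjusted p = 0.72). Det, the fly survivin (FBgn0264291, chromosome 3R, 17149667 to 17150455, plus strand), held 409 and 366 in the control and 371 and 337 in the knockdown, with overlapping groups and a log2 fold change of -0.13 (limma SE 0.09, adjusted p = 0.75). The kinase gene polo (FBgn0003124, chromosome 3L, 20309654 to 20313466, plus strand) held 5255 and 5318 in the control and 5180 and 5088 in the knockdown. Both knockdown libraries were lower by a small margin, a log2 fold change of -0.04 (limma SE 0.03, adjusted p = 0.78), with a 95% interval from 92.6% to 102% of the control. The remaining 3 genes had overlapping groups: aurA, the centrosomal Aurora kinase, with 972 to 1034 and a log2 fold change of 0.01, aurB, the catalytic subunit of the passenger complex, with 1004 to 1086 and 0.04, and borr, the borealin subunit, with 508 to 596 and 0.01. For borr both extremes were control libraries.

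In the spindle checkpoint and anaphase group 0 of 7 genes passed limma, 1 had an unadjusted p under 0.05, and the median log2 fold change was -0.023. Bub3, a checkpoint protein that recruits its partners to the kinetochore (FBgn0025457, chromosome 3R, 29674007 to 29675421, minus strand), held 2264 and 2214 normalized reads in the control and 2151 and 2054 in the knockdown. Both knockdown libraries were below both controls, with a log2 fold change of -0.09 (limma SE 0.04, adjusted p = 0.61) and a 95% interval from 88.3% to 99.8% of the control. Exons of Bub3 share 217 bp (15.9%) with exons of a gene on the opposite strand. The libraries were stranded, but the strand setting of the counting is not stated in the sources used here. The Cdc20 homologue fzy, the activator of the anaphase promoting complex (FBgn0001086, chromosome 2L, 16310956 to 16313097, plus strand), held 2223 and 2106 in the control and 1992 and 2122 in the knockdown, with a log2 fold change of -0.07 (limma SE 0.05, adjusted p = 0.70). Knockdown library 2 lay inside the range of the controls. Bub1, a checkpoint kinase (FBgn0031696, chromosome 2L, 5278865 to 5283283, plus strand), held 968 and 999 in the control and 935 and 974 in the knockdown, a log2 fold change of -0.04 (limma SE 0.05, adjusted p = 0.87). The groups overlapped here too. Among the others BubR1, a component of the checkpoint complex that inhibits fzy, ranged from 2115 to 2371 (log2 fold change -0.0086), and both extremes were knockdown libraries. Mps1, the kinase that starts checkpoint signalling, ranged from 421 to 471 (-0.02). The fly securin gene pim ranged from 381 to 401 (0.02), and the separase gene thr from 941 to 1006 (0.01).

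All 7 centromere and kinetochore genes had a negative log2 fold change, with a median of -0.089, but 0 passed limma and 0 had an unadjusted p under 0.05. The median over the group varied by an SD of 0.071 between replicate libraries, and without control library 1 the median change was -0.0099 and 4 of the 7 were negative. Without knockdown library 2 the median was -0.074 and again 4 of the 7 were negative. All 7 stayed negative without control library 2 and also without knockdown library 1. All 7 stood at rank 26 or lower of 39 by level per kb, and their SEs ran from 0.05 to 0.12. The loading factor of the centromeric histone, cal1 (FBgn0038478, chromosome 3R, 17088280 to 17091938, plus strand), held 1003 and 948 normalized reads in the control and 898 and 933 in the knockdown. Both knockdown libraries lay below both controls (log2 fold change -0.09, limma SE 0.06, adjusted p = 0.70), and 406 bp of its exons (11.3%) are shared with a gene on the opposite strand. The centromeric histone gene cid (FBgn0040477, chromosome 2R) held 213 and 189 in the control and 190 and 171 in the knockdown, with overlapping groups. Its log2 fold change of -0.15 was the most negative of the 39, and with an SE of 0.12 (limma adjusted p = 0.79) the 95% interval was also the widest, from 75.5% to 107% of the control. Spc25, a subunit of the Ndc80 complex (FBgn0087021, chromosome 3R, 12961745 to 12963249, plus strand), held 411 and 404 in the control and 382 and 385 in the knockdown. Its groups did not overlap, with a log2 fold change of -0.09 (limma SE 0.08, adjusted p = 0.82). The others overlapped between the groups, and without control library 1 Ndc80, Nuf2 and Mis12 had values of 0.02, 0.02 and 0.01. Nuf2, also of the Ndc80 complex, ranged from 454 to 527 (-0.09), and both extremes were control libraries. Ndc80, which binds microtubules, ranged from 423 to 488 (-0.01) and Mis12, which joins the outer kinetochore to the centromere, from 317 to 357 (-0.05). Cenp-C, the link to centromeric chromatin, ranged from 1888 to 2049 (-0.01).

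Spindle motors and microtubule-associated proteins showed the narrowest range of the groups with more than 1 gene, from a log2 fold change of -0.03 to 0.05, with SEs of 0.03 to 0.04. Of the 7 genes 0 passed limma and 0 had an unadjusted p under 0.05, and all 7 intervals lay between 92.8% and 110% of the control. The spindle pole gene asp (FBgn0000140, chromosome 3R, 24753849 to 24760513, plus strand) held 2374 and 2230 normalized reads in the control and 2400 and 2364 in the knockdown, with a log2 fold change of 0.05 (limma SE 0.04, adjusted p = 0.81). The groups overlapped, with control library 1 between the knockdown libraries. The minus-end directed kinesin-14 gene ncd (FBgn0002924, chromosome 3R, 29804290 to 29807127, minus strand) held 3385 and 3293 in the control and 3298 and 3242 in the knockdown, a log2 fold change of -0.03 (limma SE 0.04, adjusted p = 0.87). Exons of ncd share 417 bp (15.3%) with genes on the opposite strand. The microtubule polymerase gene msps (FBgn0027948, chromosome 3R, 16050801 to 16060675, plus strand) held 10084 and 10048 in the control and 10001 and 10448 in the knockdown. Its knockdown libraries lay on either side of the controls, and the log2 fold change was 0.02 (limma SE 0.03, adjusted p = 0.90). Klp61F ranged from 7480 to 7618 (log2 fold change -0.016) and tacc, the centrosomal partner of msps, from 7770 to 7843 (-0.0074). In both, the knockdown libraries lay below the controls by small margins, and 424 bp of Klp61F exons (11.0%) are shared with a gene on the opposite strand. The microtubule-depolymerising kinesin Klp10A ranged from 5320 to 5494 (-0.0059) and the kinesin-8 gene Klp67A from 2031 to 2118 (0.0013).

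In the central spindle and cytokinesis group 0 of 6 genes passed limma, 1 had an unadjusted p under 0.05, and the median log2 fold change was -0.016. The kinesin-6 gene sub, whose product is needed to place passenger proteins on the central spindle (FBgn0003545, chromosome 2R), held 866 and 849 normalized reads in the control and 809 and 755 in the knockdown. Both knockdown libraries were below both controls, and the log2 fold change of -0.13 (SE 0.06) had the smallest p of the 39 (limma adjusted p = 0.59), with a 95% interval from 83.5% to 99.5% of the control. Exons of sub share 506 bp (20.6%) with a gene on the opposite strand. The RhoGAP subunit of centralspindlin, tum (FBgn0086356, chromosome 2R), held 2922 and 2678 in the control and 2738 and 2586 in the knockdown, a log2 fold change of -0.07 (limma SE 0.05, adjusted p = 0.71) with overlapping groups. The PRC1-type microtubule bundler feo (FBgn0030241, chromosome X, 10852446 to 10854869, minus strand) held 2370 and 2439 in the control and 2517 and 2433 in the knockdown, a log2 fold change of 0.04 (limma SE 0.04, adjusted p = 0.83). Knockdown library 2 lay between the controls. The kinesin partner of tum in centralspindlin, pav, ranged from 2747 to 2887 (log2 fold change -0.03). The kinesin-4 gene Klp3A ranged from 4181 to 4352 (-0.0064) and the anillin gene scra from 6724 to 6999, with a value of -0.00011.

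Top2, the enzyme that unlinks DNA strands and is a major protein of mitotic chromosomes beside condensin (FBgn0284220, chromosome 2L, 19447365 to 19453490, minus strand), held 13595 and 13574 normalized reads in the control and 13022 and 13390 in the knockdown. Both knockdown libraries were below both controls. The log2 fold change was -0.04 (limma SE 0.03, adjusted p = 0.76), with a 95% interval from 93.2% to 101% of the control.

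Libraries of 1 group also differed from each other. In 24 of the 39 genes (61.5%) the control libraries differed from each other by more than the group means did, as in 56.6% of all tested rows. Library 2 was lower than library 1 in both groups for 18 genes (46.2%), against 1925 of the 7690 tested rows. The median of library 2 minus library 1 over the 39 on the log2 scale was -0.028 for control and -0.025 for knockdown libraries. The genes were spread over the genome, with 13 on chromosome 3R, 8 each on 2L and 2R, 6 on 3L and 4 on X, and negative values were found for 10, 4, 6, 4 and 3 of these. In all 39 no exon base was shared with a gene on the same strand, and 13 shared bases with a gene on the opposite strand.

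A wider set of 94 tested mitotic genes in 6 lists held 0 past the limma threshold, with 4 lower and 1 higher at an unadjusted p under 0.05. Their median log2 fold change was -0.0038 and 50 of 94 were negative (53.2%), and in 22 both knockdown libraries lay below both controls (23.4%, against 19.5% of all tested rows). In 18 both lay above, as in 19.2% of all tested rows. Among 12 other kinetochore genes cana, a kinesin of the CENP-E type, had 0.12 (limma SE 0.05, adjusted p = 0.59) and mad2, a checkpoint protein, 0.16 (SE 0.08, 0.62). Of the 11 genes of the anaphase promoting complex and its regulators, the subunit genes Cdc23 and ida had -0.13 and 0.18 (limma adjusted p = 0.63 and 0.65). The 12 regulators of mitotic entry and exit included tws, a regulatory subunit of phosphatase 2A, with 0.06, and Cks30A, a small Cdk-binding protein, with -0.09 (both adjusted p = 0.69). Of 17 centrosome and centriole genes Sas-4 had -0.20 (limma SE 0.07, adjusted p = 0.43) and spd-2 -0.12 (SE 0.05, 0.55), with both knockdown libraries below both controls in each. In the list of 25 spindle microtubule proteins the 2 smallest p-values belonged to subunits of augmin, which nucleates microtubules inside the spindle. These were wac with -0.17 (limma SE 0.05, adjusted p = 0.27) and msd1 with -0.18 (SE 0.06, 0.38). The other 6 augmin subunits, looked up after these values were seen, ran from -0.13 to 0.06. Of 17 cytokinesis genes the GTPase gene Rho1 had 0.06 and the septin gene pnut -0.07 (limma adjusted p = 0.62 and 0.65).

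**Figure D4:**
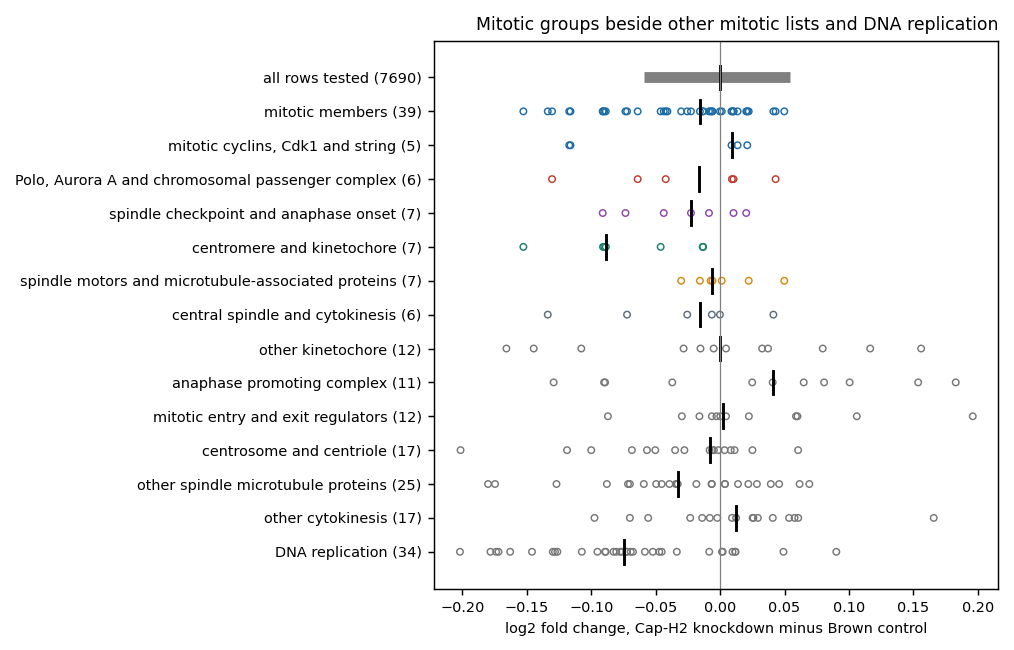
Log2 fold change (knockdown minus control) of each gene by group, with the number tested in parentheses; vertical ticks are medians, and the grey bar spans the 25th to 75th percentile of all 7690 tested rows. The mitotic groups centre near 0 apart from the centromere and kinetochore genes at -0.089, and the DNA replication list centres at -0.074.

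DNA replication genes, which act in the preceding S phase, are set beside the mitotic genes for their place in the same cycle. Of 34 tested, 0 passed limma and 8 had an unadjusted limma p under 0.05, all lower, where 3.78% of all tested rows were lower at that p. Their median log2 fold change was -0.074, and 27 were negative (79.4%, against 50.1% of all tested rows). In 19 (55.9%, against 19.5% of all tested rows) both knockdown libraries lay below both controls. No spread between replicates is given here for the median of this list. Mcm2, of the replicative helicase, held a control mean of 2219 and a knockdown mean of 2006 normalized reads (log2 fold change -0.15, limma SE 0.04, adjusted p = 0.20), and RnrS, of ribonucleotide reductase, had -0.13 (SE 0.04, 0.24). The difference between these genes and the mitotic genes was not tested.

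**Figure D5:**
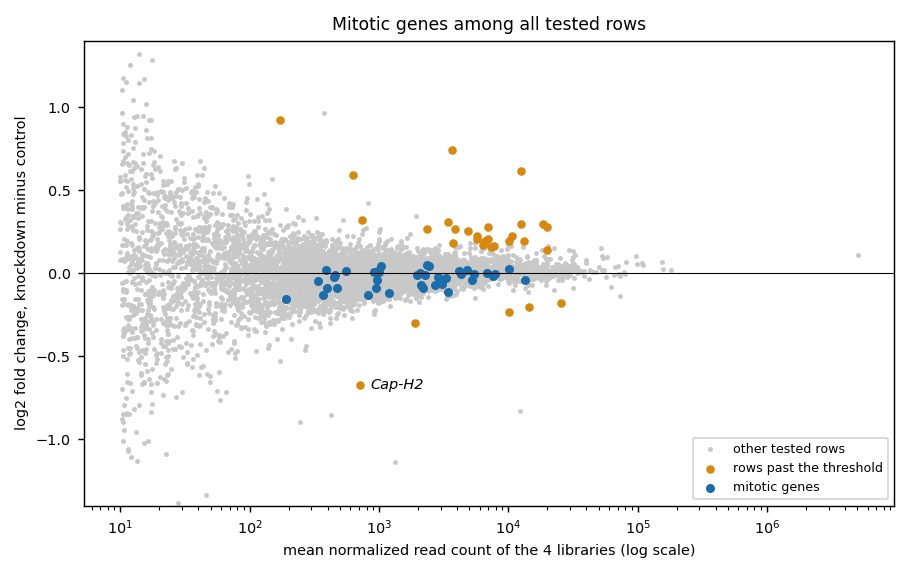
Log2 fold change against mean normalized read count (log axis) of all tested rows (grey), rows past the limma threshold (orange) and the 39 mitotic genes (blue), with 3 rows beyond the vertical limits of 1.4 not drawn. The mitotic genes sit within the grey band at counts from 191 to 13395, and none is orange.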

How the data were processed

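The authors deposited 1 table of normalized read counts (a signal, with 1 scale factor for each library as the values show) for 4 libraries and 1 table of log2 fold changes and p-values. The submitters' processing notes name fastp, HISAT2, HTSeq and dm6; versions, the strand setting and how the scale factors were made are not stated there. With each column's scale factor undone, 100% of values came out as whole reads (tolerance 0.001), and edgeR on these reads called 28 rows. The 3 special HTSeq rows, 11.5% to 13.9% of reads in the table, were left out. The deposited log2 fold changes were not used, and of the authors' p-values only the adjusted ones are quoted.

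Rows were matched by symbol (8649) or synonym (39) to the annotation BDGP6.54 in dm6 coordinates. Knockdown and control were compared by limma 3.58.1 (R 4.3.3; two-sided, moderated variances with a trend on the mean) on log2(normalized count + 1) over 7690 rows with a mean of at least 10, adjusted by Benjamini-Hochberg over all of them, with 2 residual degrees of freedom and 14.4 from the prior. Fold changes on this scale understate the change of low genes. Alternatives included edgeR 4.0.16 and DESeq2 1.42.0 on the recovered reads, and the fits were tested on simulated data. Library pairs had a chi-square over degrees of freedom from 2.97 to 7.96, so none was a duplicate. Members and lists were chosen with earlier results of these data known. All members are named, and library values are given for the 3 with the smallest unadjusted p in each function group. The 2 genes with the smallest p of each further mitotic list and of the replication list are named without single-library values. Of each marker list the most abundant gene is named. The other neuron, neuroblast, glial, blood cell and germ line markers and augmin were named after their values were seen.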

Additional observations from a re-analysis of the deposited data

How the results depend on the processing

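The count of mitotic genes called was 0 in the 12 alternatives that kept all libraries (edgeR, DESeq2, the replicate block, a robust variance prior, removal of a trend with exonic length, quantile, TMM or median scaling, a pseudocount of 0.5 or 5, and a minimum of 50 or none). It ran from 0 to 1 when a library was left out, the 1 being stg without control library 2. Such a fit takes the spread of the group left with 1 library from the other group. The count over all rows, 30, was 14 with quantile normalization and 59 with the robust prior. It was 74 without control library 1, 127 without control library 2, 50 without knockdown library 1 and 41 without knockdown library 2. Same-numbered libraries were not shown to be paired: the deviations of control and knockdown library 1 from their group means had r = -0.027 over all tested rows (0.39 over the 39 mitotic genes). The replicate block gave 146 calls over all rows and 0 among the mitotic genes, of which 4 were lower at an unadjusted p under 0.05, against 2 without the block.

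With quantile normalization the median log2 fold change was -0.035 over the mitotic genes and -0.077 for Top2. Leaving out a library, the group medians ran from -0.11 to -0.0099 for centromere and kinetochore genes, from -0.037 to 0.014 for cyclins, Cdk1 and string, from -0.043 to 0.0075 for Polo, Aurora A and passenger genes, from -0.058 to -0.015 for checkpoint and anaphase genes, from -0.018 to 0.017 for spindle genes and from -0.048 to 0.0067 for central spindle and cytokinesis genes. Of the 39 genes 18 kept their sign in every alternative with an adjusted p, 15 negative and 3 positive, and over all alternatives single genes ran from -0.25 to 0.13. With 2 libraries a group, changes too small for an interval to exclude 0 were not detectable. An interval that excluded 0 was not enough for a call either. The intervals of sub and Bub3 excluded 0, while their limma adjusted p-values were 0.59 and 0.61. These were 2 of 39 genes, where 8.13% of all tested rows had an unadjusted limma p under 0.05. The changes of cid, Det, CycB3 and stg were larger than that of Bub3, but their intervals spanned 0.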
